A study of Homo sapiens with 12 samples.

Results

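The nuclear oxidative phosphorylation subunits are the gene-encoded parts of the respiratory chain and ATP synthase that are made in the cytosol. Members were taken by name from the deposited gene tables: names of the NDUFA, NDUFB, NDUFC, NDUFS and NDUFV series followed by a number, SDHA to SDHD, UQCR, COX4 to COX8 and ATP5 names, without pseudogene or hyphenated names. This gave 86 of 60624 genes, of which 37 were assigned by name to complex I, 4 to complex II, 9 to complex III, 17 to complex IV and 19 to complex V. All 86 were listed in both experiments.

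The libraries came from islet-like cells that were differentiated from expandable pancreatic progenitors (ePP), a self-renewing culture made from MEL1, an established human embryonic stem cell line. Cells had been in R6 medium, the islet differentiation medium, to day 8. One experiment compared CLEC16A knockout (KO) with wild type (WT) cells and the other compared NKX2-2 KO with WT cells, with 3 libraries in each of the 4 groups. All groups shared the medium, which held B27, BSA, zinc sulfate, heparin, the TGF-beta receptor inhibitor 616452, T3, LDN-193189, Compound E, vitamin C and forskolin. The labels name no clone and no culture for the 3 libraries of a group. A p-value here thus covers only how far these libraries scatter, and that scatter may be technical.

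Electrons from NADH enter the chain at complex I and those from succinate at complex II. Ubiquinone carries them to complex III, and cytochrome c to complex IV, which reduces oxygen. Complexes I, III and IV pump protons, and complex V, the ATP synthase, uses the gradient. Complexes I, III, IV and V mix nuclear subunits with subunits encoded by mitochondrial DNA, whereas complex II is wholly nuclear and is also succinate dehydrogenase of the tricarboxylic acid cycle. In beta cells, ATP made by this chain closes the potassium channels that gate insulin release. CLEC16A is a regulator of mitophagy in islets, and NKX2-2 is a homeodomain transcription factor of islet cell fate. Many promoters of nuclear subunits are known targets of NRF1, of ETS-family factors such as GABPA, and of YY1.

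Promoters of the 3 succinate dehydrogenase subunits with a RefSeq entry are shown because complex II had the highest share of called members in the CLEC16A comparison below. They run from 250 bases before to 50 after the RefSeq start (GRCh38.p14), 5′ to 3′ on the strand of the gene. SDHA lies at chr5:218070-218369 on the plus strand, SDHB at chr1:17053983-17054282 on the minus strand and SDHD at chr11:112086623-112086922 on the plus strand. Capitals mark the NRF1 core CGCANGCG, the ETS core CCGGAAG and the YY1 core AAGATGGC, on either strand.
SDHA: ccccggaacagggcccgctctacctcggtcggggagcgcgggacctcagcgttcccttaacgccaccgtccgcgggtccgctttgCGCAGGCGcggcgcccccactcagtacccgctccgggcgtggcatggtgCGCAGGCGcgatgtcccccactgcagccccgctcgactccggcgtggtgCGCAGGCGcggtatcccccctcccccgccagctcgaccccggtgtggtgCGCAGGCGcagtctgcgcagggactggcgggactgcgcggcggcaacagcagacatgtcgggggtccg
SDHB: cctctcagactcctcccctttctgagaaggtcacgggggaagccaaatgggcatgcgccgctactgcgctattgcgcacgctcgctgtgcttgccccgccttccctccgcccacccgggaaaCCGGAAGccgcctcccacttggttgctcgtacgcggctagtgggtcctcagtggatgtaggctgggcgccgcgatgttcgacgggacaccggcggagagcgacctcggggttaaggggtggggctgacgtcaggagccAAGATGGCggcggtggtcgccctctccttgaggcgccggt
SDHD: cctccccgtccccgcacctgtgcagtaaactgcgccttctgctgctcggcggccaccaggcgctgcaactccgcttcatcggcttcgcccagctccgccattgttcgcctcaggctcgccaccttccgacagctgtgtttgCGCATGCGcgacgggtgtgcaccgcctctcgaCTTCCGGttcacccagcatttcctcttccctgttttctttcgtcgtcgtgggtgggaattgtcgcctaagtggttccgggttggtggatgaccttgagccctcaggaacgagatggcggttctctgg
The SDHA window held the NRF1 letters CGCAGGCG in repeated copies and neither other motif. SDHB held an ETS and a YY1 match, and SDHD held the strict NRF1 core CGCATGCG and an ETS match on the reverse strand.

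RefSeq windows were matched for 69 of the 86 members. The strict NRF1 core CGCATGCG was in 11 of them (15.9%) against 2.46% of 27305 genes, and the form with 1 free base, CGCANGCG, which includes the strict core, was in 26 (37.7%) against 12.0%. The ETS core was in 21 (30.4%, against 12.2%) and the YY1 core in 12 (17.4%, against 3.52%). In all, 41 members (59.4%) held CGCANGCG or CCGGAAG, against 21.5% of genes. The matches describe letters and not bound sites.

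Library totals were 16157481 to 20649976 counts in the NKX2-2 experiment and 31364272 to 33763795 in the CLEC16A experiment. CLEC16A itself was at 35.3, 38.0 and 36.8 CPM (counts scaled to library size) in its KO libraries and 36.2, 30.1 and 30.7 in its WT, so its summed counts do not check the KO label. NKX2-2 was at 91.7, 67.9 and 68.2 CPM in its KO libraries and 95.3, 96.5 and 93.3 in its WT, and at 58.9 to 65.8 against 113 to 131 in CLEC16A KO and WT. KO and WT below are the groups as labelled. By edgeR adjusted p under 0.05, all genes tested were 16.6% higher and 16.8% lower in NKX2-2 KO, and 23.7% and 21.3% in CLEC16A KO. Of 18 islet endocrine markers, with NKX2-2 itself among them, 10 fell and 3 rose in NKX2-2 KO, and 17 fell and 1 rose in CLEC16A KO. Their summed level was 4072 to 4246 CPM in NKX2-2 KO against 7301 to 7914 in its WT, and 17468 to 19701 against 31665 to 34669 in the CLEC16A experiment. INS was among those that fell in CLEC16A KO (log2 fold change -1.77).

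Markers of other cell types moved as well. Of 12 mesenchyme markers, 11 rose in NKX2-2 KO (summed level 6278 to 6969 CPM against 2552 to 2784) and 8 fell in CLEC16A KO (227 to 259 against 342 to 387). All 7 gut markers rose in CLEC16A KO (7432 to 9008 CPM against 1221 to 1300), and 6 fell in NKX2-2 KO. Liver markers rose for 8 of 10 genes in CLEC16A KO (16444 to 18100 CPM against 6432 to 6748). Muscle markers stayed at or under 39.7 CPM summed in every library, with MYL2 at 0 throughout. In the NKX2-2 experiment the liver sum overlapped between groups, at 10094 to 12480.1 CPM in KO and 9966 to 11579.6 in WT, with 3 of its 10 genes higher and 2 lower. The islet, mesenchyme and gut genes moved with genotype in both experiments and the liver sum in the CLEC16A experiment, and their part in the results below was not tested. In these bulk libraries, fewer cells of a type and less RNA per cell cannot be told apart.

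Levels per length, in TPM (scaled to transcript length and library size), covered a wide range within the complexes except complex II. In WT libraries of the CLEC16A experiment, complex I ran from 19.6 TPM for NDUFV3 to 551 ± 48.1 for NDUFA13 (SD, n = 3), an accessory subunit of the membrane arm. Complex II ran only from 96.4 TPM for SDHA, the flavoprotein, to 162 for SDHC, a membrane anchor. The highest members of the other complexes were UQCRH, the hinge protein, at 508 ± 29.5 TPM, COX7C at 808 ± 68.5 and ATP5F1B, the catalytic beta subunit, at 855 ± 38.5. COX7C and ATP5F1B differed by less than their spread. In the WT of the NKX2-2 experiment, complex II spanned 58.0 to 66.1 TPM and ATP5F1B was again highest at 432 ± 24.7. Across the 78 members at 5 TPM or more in WT of both tables, the order of levels was alike (Spearman rho 0.94, across genes that share the annotation and lengths). The 2 TPM tables were normalized separately, so their heights are not compared.

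**Figure D1:**
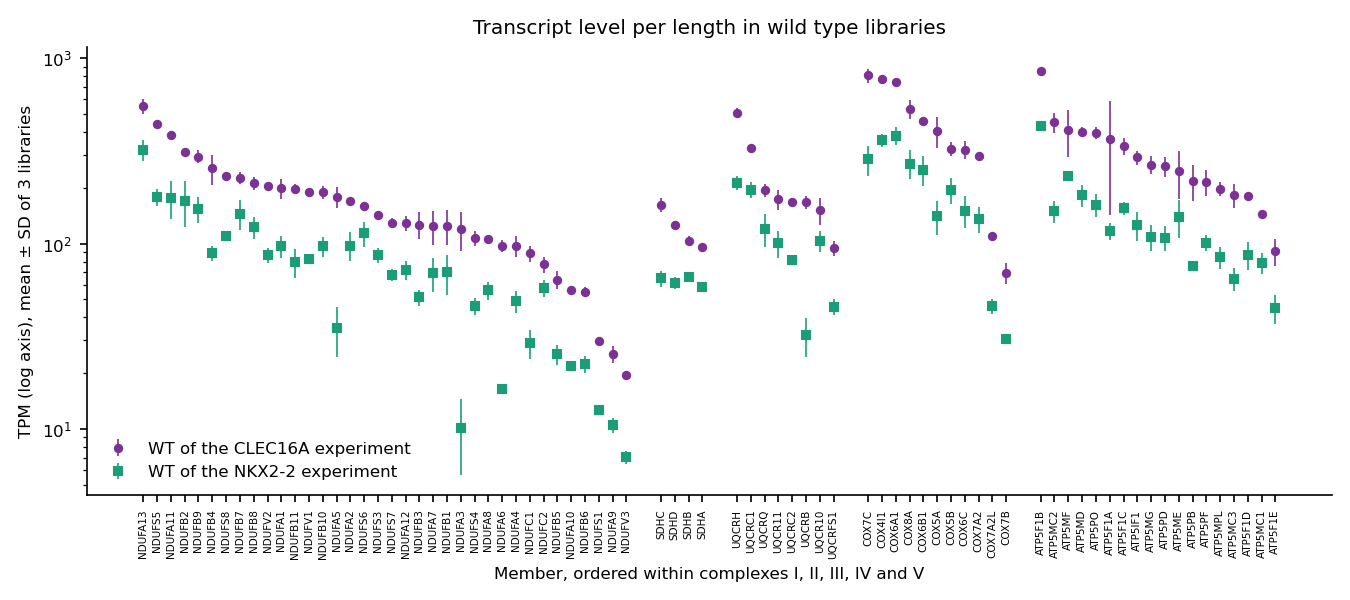
WT levels of members at 5 TPM or more (1 member is not drawn) in the CLEC16A experiment (circles) and in the NKX2-2 experiment (squares), mean ± SD of 3 libraries on a log axis, ordered within each complex by the CLEC16A experiment. Complex II members lie close together, whereas complex I runs from 19.6 to 551 TPM in the CLEC16A experiment.

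The tissue-restricted isoforms were near absent. COX4I2, a lung isoform, was listed at no count in any NKX2-2 library and at 0 to 1.05 TPM in the CLEC16A experiment, where its partner COX4I1 stood at 770 ± 40.7 TPM in WT. COX6A2 and COX7A1, the heart and muscle isoforms, were at 0 TPM in all CLEC16A experiment libraries, while COX6A1 and COX7A2 stood at 743 and 298 TPM in WT. COX7B2, COX8C and ATP5MGL did not exceed 0.226 TPM in any library. UQCRHL, an intronless copy of UQCRH, was at 4.39 ± 1.01 TPM in CLEC16A WT, beside 508 for UQCRH. COX6B2, the testis isoform of COX6B1, was at 4.30 ± 1.20 TPM in CLEC16A WT and 0.109 ± 0.00854 in NKX2-2 WT. The 6 isoforms other than UQCRHL and COX6B2 were too low to test in either experiment.

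Counts and TPM did not measure every member equally well. For 7 members in the CLEC16A experiment and 8 in the NKX2-2 experiment, counts per TPM and exon length were under 0.1 times the members' median. NDUFA11, NDUFA13, NDUFA7, NDUFB8, NDUFV2 and SDHA were short in both. NDUFA13, for example, had 277 and 339 counts in all CLEC16A KO and WT libraries together although its TPM was the highest of complex I. NDUFA3 and NDUFA6 were at 4 and 17, and 4 and 2, counts over the KO and WT libraries of the NKX2-2 experiment and could not be tested there, yet they were counted at 28.3 to 65.6 CPM in the other experiment. Pseudogene copies of SDHA held 617% of its counts in the CLEC16A experiment and 198% in the NKX2-2 experiment. Over all members, 160 named copies of 46 members held only 1.02% and 0.518% of the members' counts.

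A minority of subunits changed in the libraries labelled CLEC16A KO, by small amounts. The share called higher was near that of all genes (25.0% against 23.7%), and the share called lower was smaller (7.50% against 21.3%). Of the 80 members tested, 20 were higher and 6 lower (32.5% called, edgeR adjusted p under 0.05), against 45.0% of all 19958 genes tested, 23.7% higher and 21.3% lower. The members' median log2 fold change was 0.04 and that of all genes -0.01. No member changed 2-fold, and the called folds ran from 1.13 to 1.86. With limma on log2(TPM + 1) the split was 8 higher and 12 lower, beside 3047 and 4702 of 18048 genes with a median of -0.12. With upper-quartile scaling it was 14 and 11, beside 4034 and 5294 of 19958 genes. Of the 20 higher members, 7 kept their call in all 16 alternatives (SDHA, SDHB, SDHD, UQCRC2, UQCRQ, COX7B and ATP5F1D), and of the 6 lower members 1 did (NDUFB11).

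**Figure D2:**
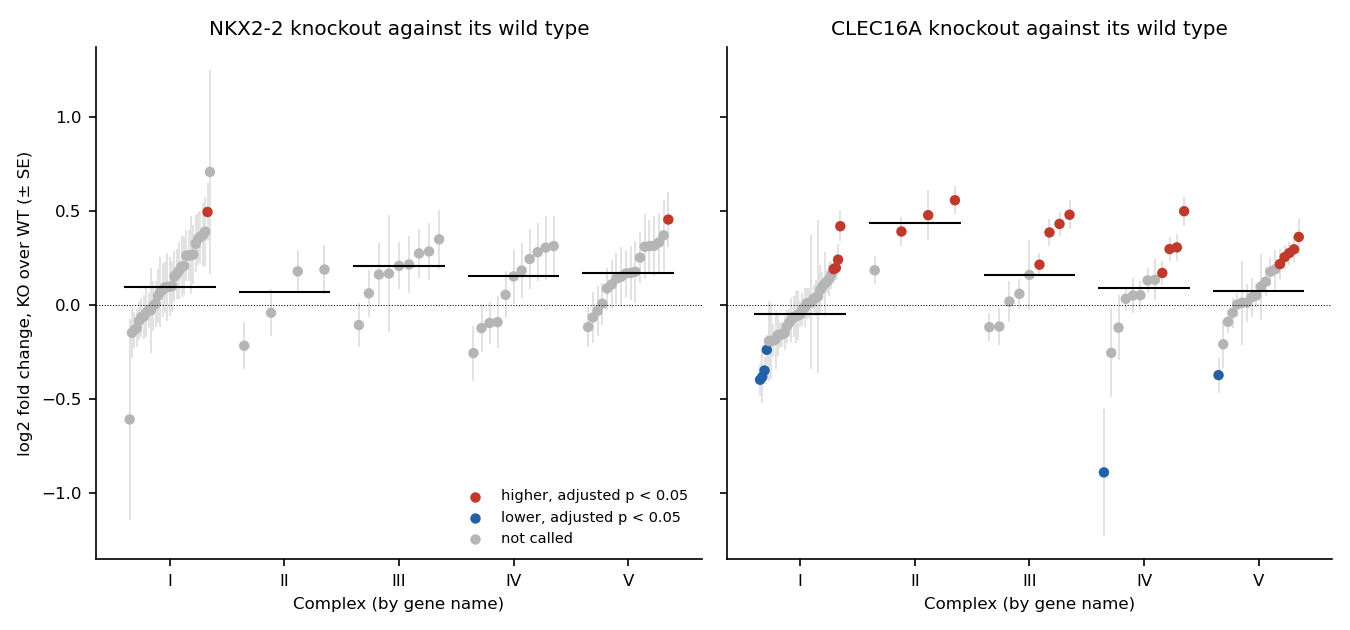
Log2 fold change of KO over WT for each tested member, with its SE, sorted within each complex. Black bars are medians, and coloured points passed an edgeR adjusted p of 0.05. On the CLEC16A side complex II has its median at 0.44 and 3 of 4 called, while on the NKX2-2 side 2 of 77 are called.

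Complex II stood higher in CLEC16A KO for 3 of its 4 subunits (75.0%, against 23.7% of all genes), with a median log2 fold change of 0.44. SDHB, the iron-sulfur subunit, was at 73.0, 79.9 and 72.2 CPM in KO and 47.6, 54.0 and 51.2 in WT. The KO libraries all lay above the WT, by 0.56 ± 0.07 on the log2 scale (SE; edgeR adjusted p = 1.5e-06). SDHD, a membrane anchor, was at 63.1, 75.1 and 67.8 CPM in KO and 51.3, 54.3 and 51.4 in WT. Its groups did not overlap either, and it rose by 0.39 ± 0.08 (edgeR adjusted p = 0.000181).

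SDHA, the subunit that oxidises succinate, was at 12.1, 11.6 and 11.9 CPM in KO and 8.03, 9.60 and 7.83 in WT. It rose by 0.48 ± 0.13 (edgeR adjusted p = 0.00528), with every KO library above every WT library. Its TPM moved alike, from 96.4 ± 3.65 in WT to 144 ± 7.71 in KO. Its pseudogene copies were also higher: the mean CPM of SDHAP3 was 1.49 times and that of SDHAP1 1.24 times the WT mean, and reads shared between them and SDHA cannot be told apart here. SDHC was at 93.8, 107 and 90.7 CPM in KO and 80.6, 92.9 and 83.0 in WT, with overlapping groups, a log2 fold change of 0.18 ± 0.08 and an edgeR adjusted p of 0.0503.

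**Figure D3:**
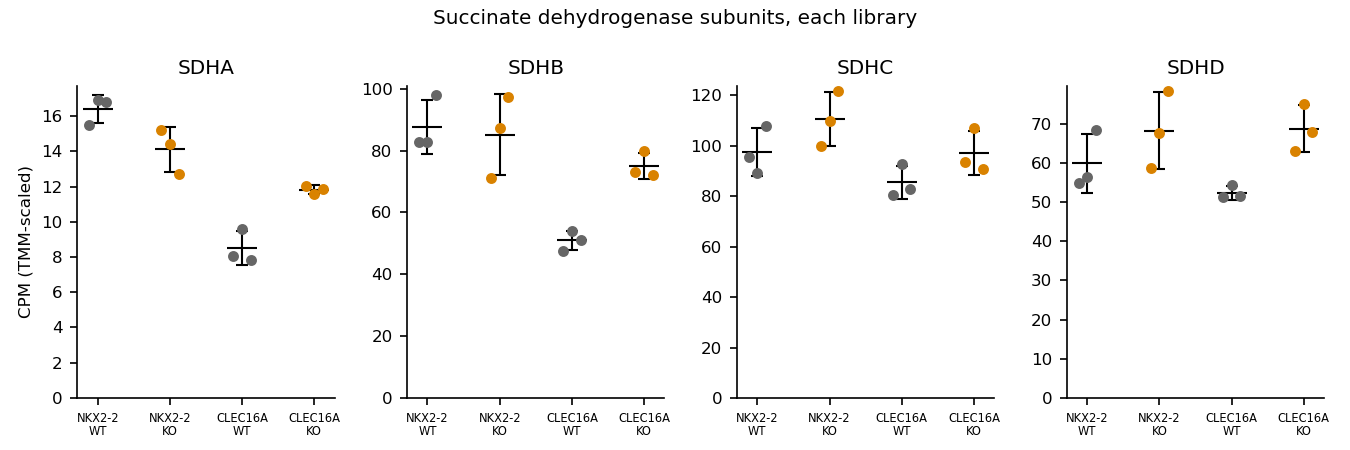
CPM of the 4 succinate dehydrogenase subunits in each library, with mean and SD (n = 3). In the CLEC16A experiment the KO libraries of SDHA, SDHB and SDHD lie above all WT libraries, whereas the NKX2-2 groups of SDHB, SDHC and SDHD overlap.

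In complex III, 4 of 9 members rose in CLEC16A KO and 0 fell (44.4% called, against 45.0% of all genes). They included the core proteins UQCRC1 (0.22, named after its value was seen) and UQCRC2, and UQCRFS1, the Rieske iron-sulfur protein. UQCRC1 kept its call in 11 of 16 alternatives and was at 0.07, not called, with limma on TPM. Across the alternatives 2 to 4 members of complex III were higher and 0 to 1 lower. The catalytic subunit CYC1 falls outside the name rule and is not among the members. UQCRC2 was at 213, 204 and 211 CPM in KO and 157, 146 and 162 in WT. It rose by 0.43 ± 0.06 (edgeR adjusted p = 5.63e-06), with no overlap. UQCRFS1 was at 193, 192 and 183 CPM in KO and 129, 160 and 145 in WT, a rise of 0.39 ± 0.07 (edgeR adjusted p = 0.000112). Of the 6 small subunits only UQCRQ was called, at 95.2, 107 and 95.3 CPM in KO and 63.1, 77.5 and 72.8 in WT. UQCRQ rose by 0.48 ± 0.08 (edgeR adjusted p = 2.25e-05), again with all KO libraries above WT. UQCRH, the complex III member with the highest TPM, overlapped between groups (0.06 ± 0.08, edgeR adjusted p = 0.575).

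In complex IV, 4 of 12 tested members rose and 1 fell (41.7% called, against 45.0% of all genes). COX7B, a small nuclear subunit encoded on the X chromosome, was at 84.2, 88.6 and 90.9 CPM in KO and 57.0, 59.4 and 70.0 in WT. Its rise of 0.50 ± 0.08 (edgeR adjusted p = 1.18e-05) was the largest among the called higher members of complex IV. COX7C, COX7A2 and COX6B1 rose by 0.30, 0.31 and 0.17, and COX6B1 kept its call in only 5 of 16 alternatives. COX6B2, the testis isoform, went the other way, at 0.711, 1.18 and 2.12 CPM in KO and 2.55, 3.17 and 1.73 in WT. The groups overlapped, and the log2 fold change of -0.89 ± 0.34 (edgeR adjusted p = 0.0367) rested on 126 and 251 counts in all. Its call was lost without CLEC16A KO library 1 or 2 and without WT library 1 or 2, with values of -0.59 to -0.88.

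In complex V, 5 of 18 tested members rose and 1 fell (33.3% called, against 45.0% of all genes). Of the 5 subunits of the F1 head and central stalk, 3 rose: ATP5F1B (beta), ATP5F1C (gamma, 0.26) and ATP5F1D (delta). Across the alternatives 1 to 3 of them were higher and 0 to 1 lower. With limma on TPM, ATP5F1B and ATP5F1C lost their calls (0.15 for each). ATP5F1B was at 913, 909 and 855 CPM in KO and 752, 704 and 755 in WT, a rise of 0.28 ± 0.06 (edgeR adjusted p = 0.000705). ATP5F1D was at 109, 121 and 106 CPM in KO and 88.0, 89.3 and 95.8 in WT, a rise of 0.30 ± 0.07 (edgeR adjusted p = 0.00115). Both were without overlap between groups. ATP5PF of the peripheral stalk rose by 0.36, and ATP5MC3, a gene for the c-ring, by 0.22 with overlapping groups and with a change of sign in 3 of 16 alternatives. ATP5F1C, ATP5PF and ATP5MC3 are named after their values were seen. ATP5MG, subunit g at the membrane, fell: it was at 27.5, 31.5 and 25.1 CPM in KO and 34.2, 39.5 and 35.3 in WT (-0.37 ± 0.09, edgeR adjusted p = 0.00228).

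Complex I did not move one way in CLEC16A KO: 4 members rose, 4 fell and 29 were not called, with a median of -0.05. That is 21.6% called, against 45.0% of all genes. NDUFA4 rose the most, at 119, 132 and 120 CPM in KO and 96.8, 79.6 and 101 in WT (0.42 ± 0.08, edgeR adjusted p = 0.000147). It is named for complex I but is now counted as a subunit of complex IV. Among the others were NDUFS1 (0.19), a core subunit of the hydrophilic arm, and NDUFS4 (0.24), an accessory subunit there. Both were named after their values were seen, and each kept its call in 8 of 16 alternatives, with NDUFS1 changing sign on the TPM scale.

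In the NDUFB series of the membrane arm, 3 of 11 members fell and 0 rose (27.3% lower, against 21.3% of all genes). NDUFB11 was at 86.3, 93.4 and 85.1 CPM in KO and 102, 124 and 112 in WT. It fell by 0.35 on the log2 scale (SE 0.07, edgeR adjusted p = 0.000415). NDUFB2 was at 36.3, 37.4 and 31.0 CPM in KO and 45.2, 48.2 and 44.7 in WT (-0.40 ± 0.09, edgeR adjusted p = 0.000474). Neither overlapped between groups, and NDUFB9, the third (named after its value was seen), changed by -0.24. Across the alternatives 1 to 5 NDUFB members were lower and 0 to 2 higher. NDUFA11, outside that series, was the fourth complex I member to fall, at 12.8, 12.5 and 8.57 CPM in KO and 15.9, 13.8 and 14.5 in WT (-0.38 ± 0.14, edgeR adjusted p = 0.0319). Its call was lost without CLEC16A KO library 3 (-0.22), WT library 1 (-0.33) or WT library 3 (-0.40), and it is among the members short of counts.

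In NKX2-2 KO, 2 of 77 tested members rose and 0 fell with edgeR (2.60%, against 33.4% of all 17436 genes tested, 16.6% higher and 16.8% lower). At an unadjusted p under 0.05 there were 7, a limit that the 33.4% of all genes called also pass. DESeq2 called 2 higher and 0 lower, beside 2453 and 3062 of all 33222 genes fitted. The count was 4 higher with upper-quartile scaling, beside 3473 of 17436 genes. It was 6 with no count filter, beside 2851 of 33222, and 6 in 1 fit of 12 libraries, beside 3603 of 20494. The members' median log2 fold change was 0.16 and that of all genes 0.03. For 75 of the 77 members, the log2 fold change plus or minus 2 SE (median SE 0.14) lay within a 2-fold change in either direction. The SE covers only the scatter of these libraries. A 2-fold range also takes in all the folds called in CLEC16A KO (1.13 to 1.86).

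NDUFA4 was at 148, 186 and 227 CPM in NKX2-2 KO and 119, 121 and 157 in WT. It rose by 0.50 ± 0.15 (edgeR adjusted p = 0.0242), although the lowest KO library lay below the highest WT library. ATP5MPL, a small membrane subunit of ATP synthase (also named ATP5MJ), was at 77.7, 98.2 and 117 CPM in KO and 64.0, 67.1 and 82.7 in WT (0.46 ± 0.15, edgeR adjusted p = 0.0312). Both calls were lost without KO library 2 or 3 or without WT library 1 or 2, with values of 0.30 to 0.50. NDUFA4 was thus called higher in both experiments, and the difference between the experiments was not called for it. In the other complexes the tested member with the largest estimate was UQCR10 in complex III (0.35 ± 0.16, edgeR adjusted p = 0.109), COX6C in complex IV (0.31 ± 0.16, 0.15) and SDHA in complex II (-0.22 ± 0.13, 0.21). NDUFA7 had the largest in complex I (0.71 ± 0.54) on 37 and 24 counts in all.

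SDHA was at 15.2, 14.4 and 12.7 CPM in NKX2-2 KO and 15.5, 16.9 and 16.8 in WT, without overlap. On log2(TPM + 1), limma called it lower (-0.43), at 43.0 ± 4.16 TPM in KO and 58.0 ± 1.28 in WT. SDHB was at 71.2, 87.3 and 97.2 CPM in KO and 82.7, 82.7 and 97.9 in WT, and overlapped (-0.04 ± 0.13, edgeR adjusted p = 0.826). SDHC (0.18 ± 0.11) and SDHD (0.19 ± 0.13) were not called either.

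The small shift of the NKX2-2 median came with a difference between libraries of the same group. Members took 1.06, 1.13 and 1.30% of the counts outside mitochondrial DNA in KO libraries 1 to 3, and 0.998, 0.993 and 1.21% in WT. In both groups library 3 had the highest share, and WT library 3 lay above KO libraries 1 and 2. Genes for cytosolic ribosomal proteins took 5.22, 5.78 and 6.86% in KO and 4.46, 4.47 and 5.61% in WT, in the same order of libraries within KO. Without WT library 3, 14 of 78 members were called higher, beside 2858 of all 18021 genes. Without KO library 1 it was 11 of 77, beside 3032 of 17876 genes. Without KO library 2 or WT library 1 or 2 it was 0 members, beside 2121 to 2168 of all genes. Leaving out both libraries numbered 3 gave 12 higher and 0 lower of 78, an alternative chosen after seeing the data. Of all 17747 genes, 2883 were higher and 3102 lower there. The members' median was 0.01 without KO library 3 and 0.28 without WT library 3, and the part of this library difference in the result was not tested. In the CLEC16A experiment the members took 0.769, 0.816 and 0.721% in KO and 0.758, 0.794 and 0.807% in WT, with overlap.

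**Figure D4:**
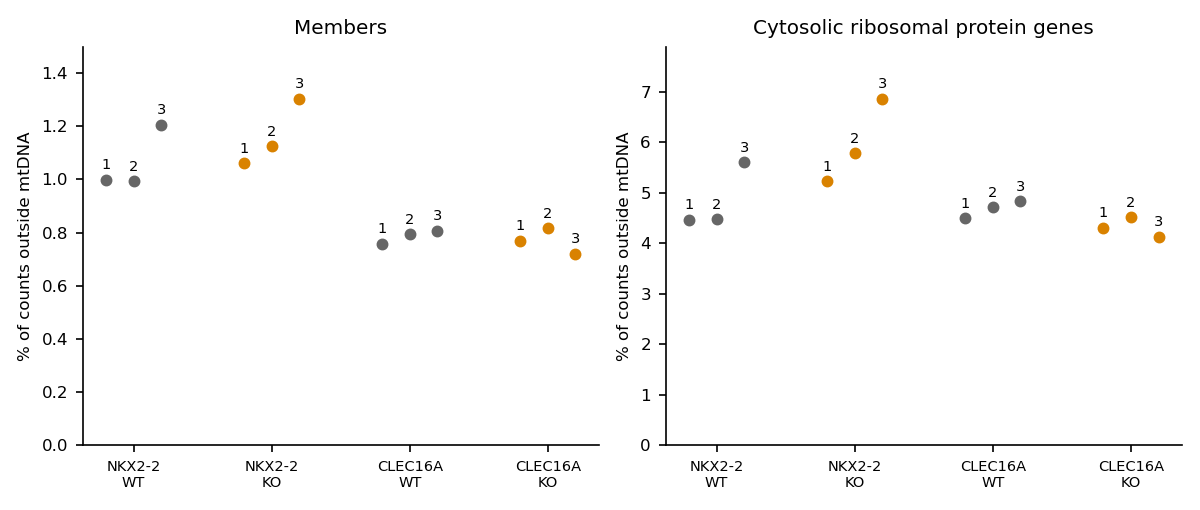
Share of the counts outside mitochondrial DNA that fell to the members (left) and to cytosolic ribosomal protein genes (right), 1 point per library with its replicate number. In both NKX2-2 groups library 3 is highest in both panels, at 1.30 and 1.21% for the members.

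The 13 protein genes of mitochondrial DNA, which encode the partners of these subunits, took 8.23 to 9.16% of all counts in NKX2-2 KO and 6.41 to 7.33% in its WT. The groups did not overlap, and 6 of the 13 were called higher and 0 lower (46.2% higher, against 16.6% of all genes), or 4 higher with RLE scaling. MT-ND3 of complex I rose by 0.66, MT-CO3 of complex IV by 0.71 and MT-ATP6 of complex V by 0.46. In the CLEC16A experiment these genes had 0 counts in every library, so the balance of nuclear and mitochondrial subunits could not be measured there.

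The difference between the KO effects (NKX2-2 minus CLEC16A) was called for 9 of 80 members (11.25%, against 38.2% of 20494 genes tested), 5 of them higher and 4 lower, against 17.8% and 20.4%. With limma on log2(TPM + 1) the split was 13 and 2, with upper-quartile scaling 12 and 2 and with RLE scaling 8 and 4. All genes there split 4082 higher and 3172 lower of 18441, 4703 and 3517 of 20494, and 3798 and 4103 of 20494. In the test above all genes split 3648 and 4183. The median of all genes moved from 0.04 to 0.12 with limma and 0.16 with upper-quartile scaling. Complex II was the only complex with 2 members lower in this difference and 0 higher in all 20 alternatives. SDHA differed by -0.69 ± 0.18 (edgeR adjusted p = 0.00359) and SDHB by -0.59 ± 0.15 (edgeR adjusted p = 0.00373): both rose in CLEC16A KO and were not called in NKX2-2 KO. The tables of the experiments did not count the same genes alike: NDUFA3 and NDUFA6 were near 0 in one, and the genes of mitochondrial DNA at 0 in the other. Each KO effect is taken within its own table, and the part of this in the difference was not tested.

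ATP5MG, NDUFA11, COX6B2, NDUFS5 and NDUFB6 differed the opposite way, and ATP5F1B and NDUFS1 the same way. ATP5MG differed by 0.63 ± 0.17 (edgeR adjusted p = 0.00506) and NDUFA11 by 0.75 ± 0.21 (edgeR adjusted p = 0.00712). In NKX2-2 KO, ATP5MG was at 43.5, 48.2 and 58.0 CPM against 37.9, 40.0 and 47.8 in WT, with overlap. NDUFA11 was at 18.4, 17.4 and 15.7 CPM against 11.8, 12.7 and 15.6. ATP5F1B, with -0.39 ± 0.12 (edgeR adjusted p = 0.0151), was at 916, 918 and 945 CPM in NKX2-2 KO and 969, 958 and 1088 in WT. None of these 3 was called in NKX2-2 KO alone. COX6B2 differed by 2.59 ± 0.67 (edgeR adjusted p = 0.00382) on few counts: 39 and 13 in NKX2-2 KO and WT, at 1.02, 0.750 and 0.404 against 0.288, 0.202 and 0.169 CPM. It was too low for the separate NKX2-2 test. NDUFS5 (0.52), NDUFB6 (0.52) and NDUFS1 (-0.32) completed the 9 and are named after their values were seen. SDHA, SDHB, ATP5MG, NDUFA11 and COX6B2 kept this call in all 20 alternatives, and NDUFS1 in 9.

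**Figure D5:**
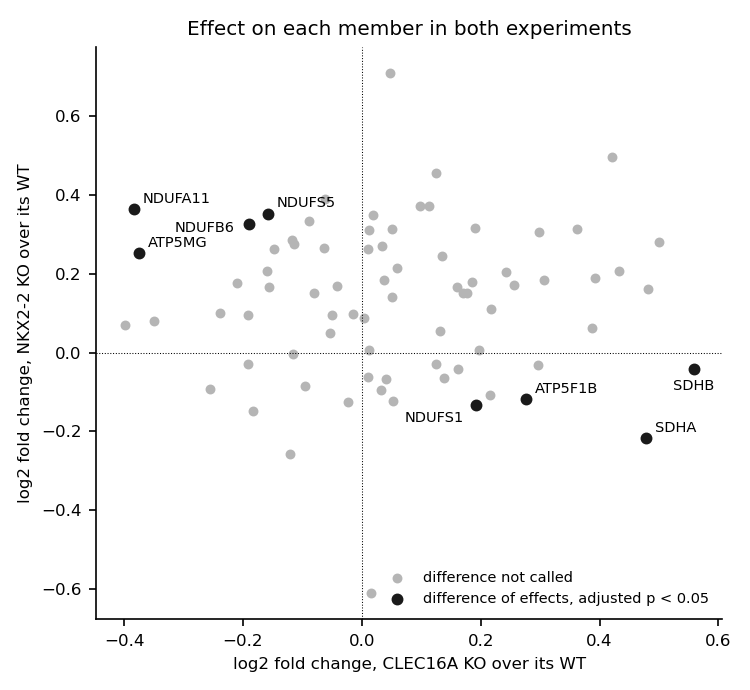
Log2 fold change of each member tested in both experiments, CLEC16A KO on the horizontal and NKX2-2 KO on the vertical axis, with members whose difference was called in black. SDHA and SDHB lie at the lower right, and NDUFA11 and ATP5MG at the upper left. COX6B2 was not tested in the NKX2-2 experiment alone and is not drawn.

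Genes around the chain were counted from lists. Of all genes tested, 23.7% were higher and 21.3% lower in CLEC16A KO, and 16.6% and 16.8% in NKX2-2 KO, so a list whose share is near these shows nothing of its own. The list of 19 complex I assembly factors also held NDUFAB1, a subunit outside the name rule, which was called in neither experiment. Of these 19, 3 rose in NKX2-2 KO (DMAC1 by 0.79, NDUFAF4 by 0.51 and TIMMDC1 by 0.41) and 0 fell, which is 15.8% higher. In CLEC16A KO 0 rose and NDUFAF6 fell (-0.39). For complexes II, III and V, assembly factors were lower or not called in CLEC16A KO: SDHAF4, which helps to mature SDHA, fell (-0.59) while SDHA rose, 3 of 9 complex III factors fell, among them BCS1L (-0.31), which inserts the Rieske protein, and 3 of 5 ATP synthase factors fell, ATPAF1, TMEM70 and TMEM242 by 0.23 to 0.24. None of these 18 was called in NKX2-2 KO. Of 25 complex IV factors, 5 rose and 2 fell in CLEC16A KO, with SCO1 (0.26) and COX15 (0.27) among the former, but with upper-quartile scaling the split was 2 and 3, and on log2(TPM + 1) it was 0 and 5. In NKX2-2 KO, 0 rose and 2 fell, COX10 (-0.44) and COA4 (-0.35).

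Of 18 tricarboxylic acid cycle genes, 8 rose in CLEC16A KO (44.4%) and 0 fell, with SUCLG2 at 0.83 and SUCLG1 at 0.58. In NKX2-2 KO 0 rose, 6 fell (33.3%) and 12 were not called. Among those that fell were DLST (-0.42), PDHX (-0.40) and MDH2 (-0.44), but only 3 of the list were lower with upper-quartile scaling and 4 on log2(TPM + 1). The difference was called lower for 11 of 18 and higher for 0, against 9 lower with upper-quartile scaling and 5 on log2(TPM + 1). With upper-quartile scaling and on log2(TPM + 1) the CLEC16A split was 7 and 1 in each case. Of 30 glycolysis and hypoxia-responsive genes, 21 rose and 2 fell in CLEC16A KO, and 4 rose and 19 fell in NKX2-2 KO, with a called difference for 3 higher and 22 lower. LDHA rose by 1.16 and HK2 by 1.44 in CLEC16A KO. NDUFA4L2, the hypoxia-linked paralog of NDUFA4, was called in neither.

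Of 16 electron carrier genes, 3 rose in CLEC16A KO (18.8%) and 0 fell: CYCS, cytochrome c, by 0.23, and ETFA and ETFB of the electron transfer flavoprotein by 0.29 and 0.28. With upper-quartile scaling and on log2(TPM + 1) the list had 1 higher and 0 lower in each case. In NKX2-2 KO ETFDH fell (-0.32). Of 17 regulators of mitochondrial biogenesis, 3 rose and 4 fell in CLEC16A KO, and 1 rose and 5 fell in NKX2-2 KO (2 and 2 with upper-quartile scaling, 1 and 1 on log2(TPM + 1)). PPARGC1B and ESRRA rose in CLEC16A KO (1.80 and 0.49) and fell in NKX2-2 KO (-0.59 and -0.71), whereas PPARGC1A fell in CLEC16A KO (-0.51) and rose in NKX2-2 KO (1.14). GABPA, a factor whose motif was searched, rose in CLEC16A KO (0.31) and was at 0.42 in NKX2-2 KO (edgeR adjusted p = 0.0537), with no called difference (0.12, edgeR adjusted p = 0.666). NRF1, whose motif was searched too, and TFAM were not called in either experiment. Mitochondrial ribosomal protein genes were 16 higher and 8 lower of 76 in CLEC16A KO (10 and 14 with upper-quartile scaling, 4 and 19 on log2(TPM + 1)) and 5 higher and 0 lower of 74 in NKX2-2 KO (3 and 3 with DESeq2, 4 and 2 with RLE scaling).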

How the data were processed

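RNA-seq of 12 libraries was analysed from the deposited gene tables: per the file headers, read counts and TPM per gene, 1 pair of tables for each experiment. The submitters' processing notes list HISAT2 2.2.1, StringTie 2.1.7, fastp 0.22.0 and build hg38, with no roles. Counting program, annotation release and strand setting: not given in the sources used here. The 45 rows of Y pseudoautosomal copies were dropped. Coordinates are from GENCODE, and promoters from RefSeq (GRCh38.p14).

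The members and gene lists were chosen with earlier results of these data known. Counts were tested in each experiment with edgeR 4.0.16 (TMM, filterByExpr, robust quasi-likelihood, R 4.3.3), KO against WT, 3 libraries each, without a replicate block. Differences of effects were tested as an interaction over all 12 libraries. P-values were adjusted over all genes tested (Benjamini-Hochberg, threshold 0.05). SE is the absolute log2 fold change over the root of F, and CPM is TMM-scaled. Same-numbered libraries did not pair throughout: their deviations correlated at 0.11, 0.03 and 0.32 (NKX2-2) and 0.01, 0.01 and -0.03 (CLEC16A). NKX2-2 KO and WT library 3 did correlate best with each other. Alternatives were other scalings, DESeq2 1.42.0, other count filters, a block, 1 fit of 12 libraries, limma 3.58.1 on TPM, and leaving libraries out. Scripts were tested on simulated data. Named members were the 12 with the smallest p among those called in each experiment, those with the highest TPM and largest change in each complex, isoform pairs, the 6 smallest p of the difference, and at most 3 genes of each other list in each comparison, by smallest p; GABPA, NRF1, TFAM, PPARGC1A and NDUFA4L2 were named outside this rule for their roles, and other names after their values were seen. Some single genes are not reported here.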

Additional observations from a re-analysis of the deposited data

Results flagged for a closer look

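The effects of the 2 knockouts differed, by the interaction test, for 9 members. The difference (NKX2-2 minus CLEC16A, log2) was -0.69 for SDHA and -0.59 for SDHB, the catalytic pair of complex II. It was -0.39 for ATP5F1B and -0.32 for NDUFS1. Positive differences were 2.59 for COX6B2, the testis isoform counted at few reads, 0.75 for NDUFA11, 0.63 for ATP5MG, and 0.52 for both NDUFS5 and NDUFB6. SDHA and NDUFA11 are among the members short of counts, and without all such members the difference was called for 4 higher and 3 lower.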

How the results depend on the processing

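Counts of called members are given as higher and lower, beside 2 and 0 in NKX2-2 KO, 20 and 6 in CLEC16A KO, and 5 and 4 for the difference. A count given for 1 direction leaves the other direction unstated. In NKX2-2 KO, upper-quartile scaling gave 4 higher, no count filter 6, 1 fit of 12 libraries 6, and leaving out both libraries numbered 3 gave 12. All genes higher there were 3473 of 17436, 2851 of 33222, 3603 of 20494 and 2883 of 17747. Limma on log2(TPM + 1), with the filter or with the pseudocount at 0.1, called 1 lower and kept NDUFA4 as higher. All genes split 2098 higher and 2308 lower of 14609, or 2075 and 2287 at 0.1. Without the filter limma called 1 higher and 1 lower, beside 1624 and 1623 of 34901 genes. In CLEC16A KO, 1 fit of 12 libraries gave 11 and 2, beside 4257 and 3603 of 20494 genes. Limma on TPM gave 8 and 12 with either pseudocount, beside 3047 and 4702 of 18048 genes, or 2986 and 4603 at 0.1. Without the filter limma gave 7 higher, beside 2841 of 33117, and upper-quartile scaling gave 11 lower, beside 5294 of 19958. For the difference, RLE scaling gave 8 higher, upper-quartile scaling 12 and 2, no filter 11 and the 1 CPM filter 8. Leaving out mitochondrial DNA genes gave 8 higher, and limma on TPM 13 and 2. In the same order, all genes higher were 3798, 4703, 3562, 3676, 3831 and 4082, of 17390 to 38190 tested. Lower were 3517 with upper-quartile scaling and 3172 with limma. Leaving out 1 library at a time gave 0 to 14 higher and 0 lower in NKX2-2 KO. It gave 15 to 23 higher and 4 to 7 lower in CLEC16A KO, and 3 to 17 higher and 3 to 9 lower for the difference. In that order, all genes had 2121 to 3032, 4268 to 4531 and 3223 to 3789 higher. They had 2177 to 3300, 3663 to 3972 and 3773 to 4399 lower. The difference ran to 17 higher without NKX2-2 WT library 3 and 11 without NKX2-2 KO library 1. It was 3 higher without NKX2-2 WT library 1, and 9 lower without NKX2-2 KO library 3. The cause of these shifts was not tested.

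The labels do not say whether KO and WT libraries with the same replicate number belong together. With a replicate block, NKX2-2 KO gave 26 higher and 0 lower, beside 4077 higher and 3960 lower of all 17436 genes. CLEC16A KO gave 20 and 6, beside 4626 and 4137 of 19958 genes. The difference gave 17 and 8, beside 4208 and 4681 of 20494 genes. Mitochondrial ribosomal protein genes in NKX2-2 KO were 15 higher and 7 lower. In neither experiment did every library correlate best with its own number, although NKX2-2 KO and WT library 3 did so (0.32). Of the called members, ATP5MC3 and NDUFS1 in CLEC16A KO changed sign, each in the 3 TPM settings. Depth limits the low members: the 6 untested isoforms, NDUFA3, NDUFA6 and those short of counts.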
